A study of Mus musculus with 35 samples.

Results

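The C1q/TNF-related protein (CTRP) genes were followed in mouse cardiac fibroblasts (CFs) and hearts in which the micropeptide IAMP, encoded by 4930523C07Rik, had been knocked down or knocked out. The 7 genes C1qtnf1, C1qtnf2, C1qtnf3, C1qtnf5, C1qtnf6, C1qtnf7 and C1qtnf12 were taken by symbol from 55487 genes in each of 4 tables. They were chosen by family and on measured values, namely the lower C1qtnf3 level with both siRNAs under TGF-β. All siRNA against si-NC values under TGF-β, and the TGF-β response of C1qtnf3, are therefore given as a description with no test.

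The RNA-Seq libraries came from primary CFs of adult mice, freed by digestion of the heart and selected by adherence to collagen, and from whole hearts of C57BL/6 mice, 8 weeks old and in the basal state per the study's text. CFs received a negative-control siRNA (si-NC) or 1 of 2 siRNAs against 4930523C07Rik (si-IAMP-1, si-IAMP-2), and were left untreated, given IL-17 or given TGF-β, with 3 libraries in each of 9 groups. The labels give 24 h of siRNA and a further 24 h of IL-17, and no time for the untreated or TGF-β cells. The heart groups were 4 IAMP-KO mice (KO), carrying a CRISPR-Cas9 frameshift, and 4 heterozygous mice (Het), so the controls carried 1 mutant allele. The sex of each heart and the number of mice behind the CF cultures are not given in the labels, so p values for CFs measure the spread between libraries, which may be technical.

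CTRPs are secreted proteins related to adiponectin, with a collagen-like stretch and a globular C1q domain through which they assemble into trimers. Several circulate as hormones of glucose and lipid metabolism, and several are made by mesenchymal cells, fibroblasts among them. CTRP3, the product of C1qtnf3 (also called cartducin), was described as a growth factor of cartilage progenitors and has been studied as an antifibrotic and antiinflammatory factor in the heart. TGF-β drives fibroblasts toward a matrix-producing myofibroblast state through SMAD proteins, and IL-17 is an inflammatory cytokine.

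The sequence before the transcription start is shown for C1qtnf2, C1qtnf3 and C1qtnf7, the members whose levels were higher under TGF-β, so that the letters before the start can be read beside the TGF-β values. Of the 7 members, 5 had a promoter sequence from RefSeq. Capitals mark matches on either strand to TATAAA (the core of a TATA box), CAGAC (the core letters of a SMAD-binding element) and ACGTG or GCGTG (the core letters of a hypoxia response element), and each stretch ends before the first annotated exon.
C1qtnf3 (GRCm38.p6, chr15:10952082-10952331, plus strand): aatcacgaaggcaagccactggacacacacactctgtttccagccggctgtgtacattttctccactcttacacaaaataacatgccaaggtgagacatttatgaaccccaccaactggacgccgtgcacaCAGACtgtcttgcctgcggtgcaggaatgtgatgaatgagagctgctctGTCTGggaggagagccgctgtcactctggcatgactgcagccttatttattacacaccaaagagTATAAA
C1qtnf2 (GRCm38.p6, chr11:43474056-43474275, plus strand): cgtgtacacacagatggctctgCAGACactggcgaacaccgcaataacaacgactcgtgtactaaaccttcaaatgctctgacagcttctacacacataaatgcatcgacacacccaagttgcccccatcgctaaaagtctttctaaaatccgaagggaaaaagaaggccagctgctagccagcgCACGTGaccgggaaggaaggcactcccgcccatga
C1qtnf7 (GRCm38.p6, chr5:43515319-43515537, plus strand): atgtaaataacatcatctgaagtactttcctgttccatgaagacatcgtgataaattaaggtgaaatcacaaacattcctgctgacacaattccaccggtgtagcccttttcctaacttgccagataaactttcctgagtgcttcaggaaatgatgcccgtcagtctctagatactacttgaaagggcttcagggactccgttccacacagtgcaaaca
C1qtnf3 held CAGAC at -119 to -115 and, on the other strand, at -70 to -66, and TATAAA at -6 to -1, counted from the RefSeq start. C1qtnf2 held CAGAC at -228 to -224 and a palindrome in which ACGTG was read on both strands, from -65 to -60. C1qtnf7 held none of these letters in the 250 bases before its start. C1qtnf5 held CAGAC on the other strand at -211 to -207, and C1qtnf6 held GCGTG at -29 to -25. So 3 of 5 member promoters held CAGAC and 1 of 5 each of the others. Over 32851 promoters, 42.2% held CAGAC in the same 250 bases, 12.4% TATAAA, 16.6% ACGTG and 28.2% GCGTG. These matches are descriptions of letters and not of binding.

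In GRCm38 (GENCODE vM21), C1qtnf1 (ENSMUSG00000017446) lies on chromosome 11 from 118428203 to 118449963 and C1qtnf2 (ENSMUSG00000046491) on the same chromosome from 43474276 to 43491525. C1qtnf3 (ENSMUSG00000058914) lies on chromosome 15 from 10952332 to 10980150, and C1qtnf6 (ENSMUSG00000022440) on the minus strand of that chromosome from 78523346 to 78531416. C1qtnf5 (ENSMUSG00000079592) lies on chromosome 9 from 44107245 to 44109187, C1qtnf7 (ENSMUSG00000061535) on chromosome 5 from 43515538 to 43618803, and C1qtnf12 (ENSMUSG00000023571) on chromosome 4 from 155962318 to 155966629. All of the 1589 exonic bases of C1qtnf5 also belong to annotated exons of Mfrp, on the same strand, so the split of reads between the pair is uncertain, and Mfrp was listed at 1 to 113 estimated counts in CFs against 2631 or more for C1qtnf5. Antisense Gm11747 shares 20.5% of the exonic bases of C1qtnf1 and antisense Gm49490 shares 4.33% of those of C1qtnf6. Gm20444, on the opposite strand to C1qtnf5, shares 40.8% of its exonic bases. The strand setting of the counting is not given in the sources used here, but Gm11747 stayed at or under 7 estimated counts, Gm49490 at or under 25 and Gm20444 at or under 35 in every CF library.

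Library totals were 104139670 to 119232309 estimated counts in CFs and 23497027 to 23857313 counts in hearts, and levels are given as CPM, the count scaled by these totals. In CFs 1 read pair stands for up to 6 estimated counts, so 3 read pairs, or 18 estimated counts, were taken as the floor of detection. This floor covers counting error only. Values after ± are the SD between libraries or the standard error (SE) of the fit, which also hold the spread between libraries. The level of 4930523C07Rik was 17.5 to 26.9 CPM in the 9 si-NC libraries, 2.24 to 4.63 CPM with si-IAMP-1 and 1.64 to 3.70 CPM with si-IAMP-2. In hearts it was 15.9 to 18.6 CPM in Het and 15.0 to 17.3 CPM in KO, and a frameshift need not lower a transcript, so this does not check the genotype. Summed over 6 fibroblast markers, CFs reached 7625 to 16303 CPM and hearts 496 to 822 CPM, while 5 cardiomyocyte markers summed to 34870 to 39902 CPM in hearts. Rose and fell mark an adjusted p of 0.05 or lower in edgeR's quasi-likelihood test, adjusted by Benjamini-Hochberg over all genes tested. Called means that the log2 fold change also reached 1 in either direction (untreated cells, hearts, stimulus comparisons) or 0.585 (siRNA comparisons under IL-17 and TGF-β).

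Per kb of exon, C1qtnf6 had the highest level of the 7 in untreated si-NC cells, at 50.6 ± 1.38 CPM per kb (SD, n = 3). C1qtnf6 encodes CTRP6, a regulator of the alternative complement pathway. C1qtnf5, known for mutations in late-onset retinal degeneration, followed at 20.9 ± 1.29 CPM per kb, then C1qtnf2 at 14.9 ± 0.570 and C1qtnf12, which encodes the insulin-sensitising adipokine adipolin, at 9.39 ± 0.687. C1qtnf1 stood at 6.62 ± 0.356 CPM per kb and C1qtnf7 at 1.61 ± 0.204. C1qtnf3 was lowest at 0.149 ± 0.0824 CPM per kb.

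Across the 9 CF groups the mean level of C1qtnf3 was lowest at 0.174 CPM under IL-17 with si-IAMP-2 and highest at 3.72 CPM under TGF-β with si-NC. With the libraries under the floor set at the floor, the span was 20.1-fold, and the lowest mean rests on few read pairs. The TGF-β values of C1qtnf3 were used to choose it, so its span is a description and is not ranked with the others. The span was 6.87-fold for C1qtnf1, 5.01-fold for C1qtnf7 and 4.53-fold for C1qtnf2. It was 1.92-fold for C1qtnf6, 1.48-fold for C1qtnf12 and 1.36-fold for C1qtnf5.

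**Figure D1:**
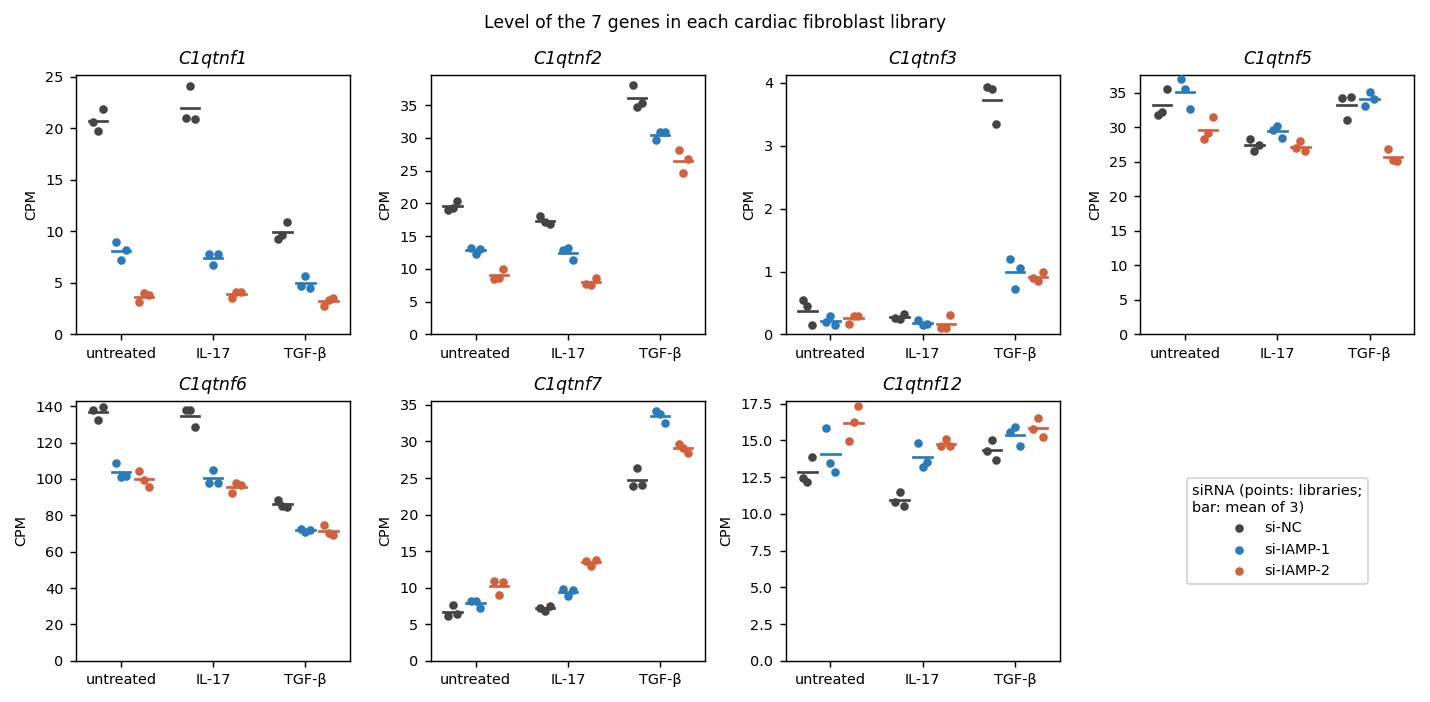
Level in CPM (vertical axes, from 0) of each of the 7 genes in the 27 CF libraries, by stimulus (horizontal axis) and siRNA (colour). Points are libraries and bars are means of 3. The 3 TGF-β si-NC libraries of C1qtnf3 lie at 3.34 to 3.94 CPM, above all other libraries of that gene, and C1qtnf1 steps down from si-NC to si-IAMP-1 to si-IAMP-2 in each stimulus.

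C1qtnf3 was near the floor without TGF-β and detected in every library with it. In untreated cells its level was 0.545, 0.453 and 0.143 CPM with si-NC, 0.196, 0.294 and 0.146 CPM with si-IAMP-1, and 0.171, 0.298 and 0.300 CPM with si-IAMP-2. The 3 groups overlapped, and replicate 3 of si-NC and of si-IAMP-1, each at 17 estimated counts, lay under the floor. Under TGF-β the si-NC libraries were at 3.94, 3.89 and 3.34 CPM, the si-IAMP-1 libraries at 1.20, 0.723 and 1.06 CPM and the si-IAMP-2 libraries at 0.904, 0.845 and 0.996 CPM. Both siRNA groups lay below every si-NC library and overlapped each other. The mean under TGF-β was 26.7% of si-NC with si-IAMP-1 and 24.6% with si-IAMP-2, or -1.88 ± 0.20 and -1.96 ± 0.20 on the log2 scale (SE, n = 3 per group). These values chose the gene and carry no test.

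With both siRNAs C1qtnf3 remained higher under TGF-β than in the untreated cells of the same siRNA. The log2 difference between TGF-β and untreated was 3.29 ± 0.40 in si-NC, 2.15 ± 0.40 in si-IAMP-1 and 1.81 ± 0.40 in si-IAMP-2, as a description. Under IL-17 the level was 0.251 to 0.324 CPM with si-NC, 0.157 to 0.233 CPM with si-IAMP-1 and 0.103 to 0.309 CPM with si-IAMP-2, of which replicates 1 and 2 were under the floor at 12 and 13 estimated counts. The si-IAMP-1 libraries lay below si-NC there and the si-IAMP-2 libraries overlapped it. The differences from si-NC were -0.49 ± 0.58 with si-IAMP-1 (edgeR adjusted p = 0.570) and -0.62 ± 0.59 with si-IAMP-2 (edgeR adjusted p = 0.428). In untreated cells they were -0.74 ± 0.54 (edgeR adjusted p = 0.325) and -0.50 ± 0.54 (edgeR adjusted p = 0.495). A difference was not detectable at this depth outside TGF-β.

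C1qtnf1, whose product is known for inhibiting collagen-induced platelet aggregation, was lower with both siRNAs. In untreated cells it was at 20.6, 19.7 and 21.9 CPM with si-NC, at 8.97, 7.26 and 8.18 CPM with si-IAMP-1 and at 3.18, 4.05 and 3.80 CPM with si-IAMP-2. Under IL-17 it was at 21.0, 24.2 and 20.9 CPM with si-NC, at 7.85, 6.70 and 7.83 CPM with si-IAMP-1 and at 3.58, 4.09 and 4.08 CPM with si-IAMP-2. The 3 groups did not overlap in either condition, with si-IAMP-2 lowest. C1qtnf1 fell by 1.25 ± 0.10 and 2.43 ± 0.10 on the log2 scale in untreated cells (SE, n = 3; edgeR adjusted p = 2.56e-08 and 5.12e-12). Under IL-17 it fell by 1.45 ± 0.09 and 2.42 ± 0.09 (edgeR adjusted p = 6.18e-10 and 6.43e-13). Under TGF-β the si-NC level was 9.24, 9.61 and 10.9 CPM, the si-IAMP-1 level 4.69, 5.70 and 4.47 CPM and the si-IAMP-2 level 2.73, 3.32 and 3.57 CPM. These groups did not overlap either, and the differences from si-NC were -0.97 ± 0.12 and -1.57 ± 0.13, as a description.

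C1qtnf2, another metabolic CTRP, had the same order of groups in each condition. In untreated cells it was at 18.9, 19.4 and 20.4 CPM with si-NC, at 13.2, 12.3 and 13.0 CPM with si-IAMP-1 and at 8.53, 8.61 and 9.96 CPM with si-IAMP-2. It fell by 0.51 ± 0.07 with si-IAMP-1 (edgeR adjusted p = 2.79e-05), short of 2-fold, and by 1.05 ± 0.07 with si-IAMP-2 (edgeR adjusted p = 3.27e-09). Under IL-17 it was at 16.8 to 18.1, 11.3 to 13.1 and 7.59 to 8.55 CPM in si-NC, si-IAMP-1 and si-IAMP-2, and it fell by 0.37 ± 0.08 (edgeR adjusted p = 0.000847) and 1.05 ± 0.08 (edgeR adjusted p = 4.22e-09). Under TGF-β the differences were -0.22 ± 0.06 and -0.38 ± 0.06, as a description, at levels of 34.7 to 38.1, 29.6 to 30.9 and 24.7 to 28.1 CPM.

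C1qtnf6 was at 132 to 139 CPM in untreated si-NC cells, above all si-IAMP-1 libraries at 101 to 109 CPM and all si-IAMP-2 libraries at 95.4 to 105 CPM. It fell by 0.30 ± 0.04 and 0.39 ± 0.04 (edgeR adjusted p = 1.32e-05 and 3.31e-07), and under IL-17 by 0.32 ± 0.04 and 0.42 ± 0.04 (edgeR adjusted p = 3.07e-06 and 5.84e-08). None of these reached the fold threshold. Under TGF-β it was at 84.4 to 88.6, 70.8 to 72.3 and 69.3 to 74.6 CPM, with differences of -0.24 ± 0.04 and -0.21 ± 0.04 as a description.

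C1qtnf7 moved the other way. In untreated cells it was at 6.07, 7.65 and 6.33 CPM with si-NC, 8.17, 8.19 and 7.23 CPM with si-IAMP-1 and 10.9, 9.06 and 10.7 CPM with si-IAMP-2. Only the si-IAMP-2 libraries stood clear of si-NC. The rise was 0.33 ± 0.10 with si-IAMP-1 (edgeR adjusted p = 0.0160) and 0.68 ± 0.10 with si-IAMP-2 (edgeR adjusted p = 2.82e-05), neither 2-fold. The si-IAMP-1 value passed no longer when any of 4 libraries, si-NC 1 or 3 and si-IAMP-1 1 or 2, was left out (edgeR adjusted p = 0.0578 to 0.0808). Under IL-17 it was at 6.78 to 7.53, 8.91 to 9.81 and 13.0 to 13.8 CPM, without overlap, and rose by 0.51 ± 0.07 (edgeR adjusted p = 2.44e-05) and 0.98 ± 0.07 (edgeR adjusted p = 4.39e-09). Under TGF-β the si-IAMP-1 libraries were highest, at 32.6 to 34.2 CPM, followed by si-IAMP-2 at 28.4 to 29.7 CPM and si-NC at 23.9 to 26.4 CPM, with differences of 0.46 ± 0.05 and 0.29 ± 0.05 as a description.

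C1qtnf12 was at 12.2 to 13.9 CPM in untreated si-NC cells, 12.9 to 15.9 CPM with si-IAMP-1 and 14.9 to 17.4 CPM with si-IAMP-2. It rose by 0.40 ± 0.09 with si-IAMP-2 (edgeR adjusted p = 0.000919) and by 0.45 ± 0.07 and 0.51 ± 0.07 under IL-17 (edgeR adjusted p = 5.09e-05 and 8.38e-06), all short of the fold threshold. Under TGF-β the differences were 0.13 ± 0.07 with si-IAMP-1 and 0.20 ± 0.07 with si-IAMP-2, as a description. There the si-IAMP-1 libraries overlapped si-NC and the si-IAMP-2 libraries lay above it. The C1qtnf12 value with si-IAMP-1 in untreated cells, 0.23 ± 0.09 (edgeR adjusted p = 0.0435), lay past the adjusted p threshold in 8 of 14 alternatives. These include the other fold threshold, which cannot change an adjusted p. C1qtnf5 was 0.18 ± 0.06 higher with si-IAMP-1 in untreated cells (edgeR adjusted p = 0.0265), a value that passed no longer without any of si-NC 1 or 2 or si-IAMP-1 1 or 2 (edgeR adjusted p = 0.0744 to 0.134), and rose by 0.21 ± 0.05 under IL-17 (edgeR adjusted p = 0.00260). With si-IAMP-2 C1qtnf5 differed by -0.10 ± 0.06 in untreated cells (edgeR adjusted p = 0.218) and 0.06 ± 0.05 under IL-17 (edgeR adjusted p = 0.346). Under TGF-β C1qtnf5 with si-IAMP-2, at 25.2 to 26.8 CPM, lay below si-NC at 31.1 to 34.4 CPM and si-IAMP-1 at 33.1 to 35.1 CPM.

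All 7 members entered the CF tests. In untreated cells, 6 passed the adjusted p with si-IAMP-1 against 39.9% of all 19669 genes, and 5 with si-IAMP-2 against 49.3%. Under IL-17, 6 passed with si-IAMP-1 against 42.3% of 19906 genes, and 5 with si-IAMP-2 against 50.6%. Of members called, 1 was lower and 0 higher with si-IAMP-1 in untreated cells, where 2.61% of all genes were called lower and 2.15% higher, and 2 were lower and 0 higher with si-IAMP-2, where the shares were 7.23% and 3.42%. Under IL-17, 1 was lower and 0 higher with si-IAMP-1 (7.97% and 5.58% of all genes), and 2 were lower and 1 higher with si-IAMP-2 (13.7% and 8.06%). Under TGF-β, as a description, C1qtnf1 and C1qtnf3 lay past both thresholds, lower, with each siRNA, and no member did so higher. C1qtnf3 was chosen for its lower level in these contrasts, so this count is no result about the members. Over all 19891 genes, 1.91% were past both thresholds lower and 2.45% higher with si-IAMP-1, and 5.44% and 2.07% with si-IAMP-2. The median log2 fold change of the members was -0.30 and -0.39 in untreated cells, beside -0.02 and -0.02 over all genes. This median takes in C1qtnf3, chosen on its lower TGF-β values and not detectably different in untreated cells. The members went in opposite directions, C1qtnf7 and C1qtnf12 being higher with both siRNAs, so the median describes no shared shift. With si-IAMP-1 in untreated cells the libraries of both these genes overlapped si-NC. Their adjusted p values there rose above 0.05 when some single libraries were left out.

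**Figure D2:**
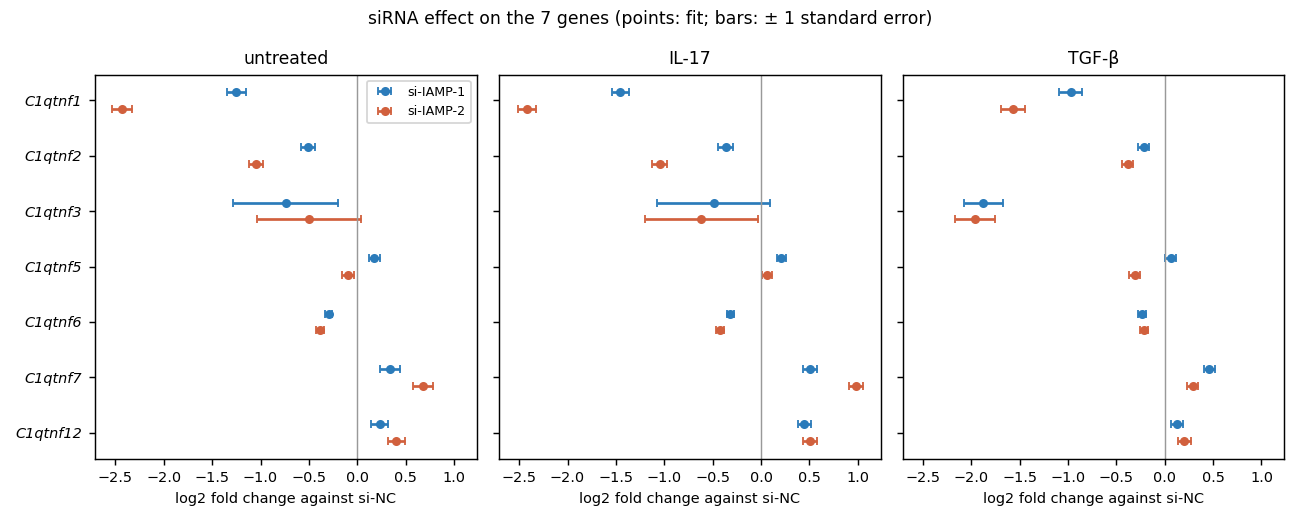
log2 fold change of each siRNA against si-NC (horizontal axis, shared by the panels) for the 7 genes (vertical axis) in untreated, IL-17 and TGF-β cells. Points are fitted values and bars ± 1 standard error. C1qtnf1 lies at -0.97 or lower in all 6 comparisons, while C1qtnf3 has standard errors of 0.54 to 0.59 outside TGF-β and 0.20 within it.

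The siRNAs differed from each other most for C1qtnf1. It was lower with si-IAMP-2 than with si-IAMP-1, with log2 differences of -1.18 ± 0.10 in untreated cells (edgeR adjusted p = 5.58e-08), -0.96 ± 0.09 under IL-17 (edgeR adjusted p = 1.26e-07) and -0.59 ± 0.13 under TGF-β (edgeR adjusted p = 0.00195). The TGF-β value lost its call without si-IAMP-1 replicate 2 (-0.48) or si-IAMP-2 replicate 1 (-0.49). C1qtnf2 was also lower with si-IAMP-2, with log2 differences of -0.54 ± 0.07 in untreated cells (edgeR adjusted p = 1.18e-05) and, past the fold threshold, -0.68 ± 0.08 under IL-17 (edgeR adjusted p = 1.30e-06). C1qtnf7 was higher with si-IAMP-2 in untreated cells by 0.35 ± 0.10 (edgeR adjusted p = 0.0102) and under IL-17 by 0.48 ± 0.07 (edgeR adjusted p = 3.27e-05), but lower under TGF-β, at -0.17 ± 0.05 (edgeR adjusted p = 0.0288). C1qtnf5 was lower with si-IAMP-2 in untreated cells at -0.27 ± 0.06 (edgeR adjusted p = 0.00121), under IL-17 at -0.15 ± 0.05 (edgeR adjusted p = 0.0236, past the threshold no longer in 5 of 14 alternatives) and under TGF-β at -0.37 ± 0.06 (edgeR adjusted p = 0.000109). The 14 alternatives include the other fold threshold, which cannot change an adjusted p. C1qtnf3 under TGF-β differed between the siRNAs by -0.09 ± 0.21. The members called were 1 of 7 in untreated cells, 2 of 7 under IL-17 and 1 of 7 under TGF-β, beside 6.65%, 15.7% and 3.96% of all genes. The siRNAs also differed in knockdown, 4930523C07Rik being lower with si-IAMP-2 in each condition by its mean, and the part of this in the differences was not tested.

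In si-NC cells TGF-β was set against untreated in 1 fit of all 27 CF libraries. Each table holds 1 stimulus, so the stimulus and the batch of libraries cannot be told apart. C1qtnf7 rose by 1.90 ± 0.08 on the log2 scale (edgeR adjusted p = 2.62e-20), from 6.07 to 7.65 CPM to 23.9 to 26.4 CPM. C1qtnf2 rose by 0.89 ± 0.07 (edgeR adjusted p = 3.82e-13), from 18.9 to 20.4 CPM to 34.7 to 38.1 CPM, short of 2-fold. C1qtnf1 fell by 1.06 ± 0.11 (edgeR adjusted p = 3.94e-10) and C1qtnf6 by 0.66 ± 0.04 (edgeR adjusted p = 3.78e-15), the latter short of 2-fold. C1qtnf5 and C1qtnf12 differed by 0.01 ± 0.06 (edgeR adjusted p = 0.920) and 0.17 ± 0.08 (edgeR adjusted p = 0.0631). Of the 6 members other than C1qtnf3, 4 passed the adjusted p, beside 55.5% of 22359 genes. Called were 1 higher (C1qtnf7) and 1 lower (C1qtnf1), beside 11.7% and 9.14% of all genes.

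The TGF-β response of other members also differed in size with the siRNA, as a description. C1qtnf2 was higher than untreated by 0.89 ± 0.07 in si-NC, 1.17 ± 0.07 in si-IAMP-1 and 1.53 ± 0.07 in si-IAMP-2. C1qtnf1 differed by -1.06 ± 0.11, -0.79 ± 0.11 and -0.22 ± 0.12 in the same order. C1qtnf7 was higher by 1.90 ± 0.08, 2.02 ± 0.08 and 1.48 ± 0.07. The difference in C1qtnf1 between si-NC and si-IAMP-2 was thus narrower under TGF-β, where the C1qtnf1 libraries of si-IAMP-2 overlapped those of untreated si-IAMP-2 cells.

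IL-17 left every member short of a call. C1qtnf5 fell by 0.28 ± 0.06 in si-NC (edgeR adjusted p = 0.000622), from 31.8 to 35.6 CPM to 26.6 to 28.3 CPM. C1qtnf12 differed by -0.23 ± 0.08 (edgeR adjusted p = 0.0484), a value past the adjusted p threshold in 7 of 14 alternatives. These include the other fold threshold, which cannot change an adjusted p. The other members differed by -0.43 to 0.10, with C1qtnf3 at -0.43 ± 0.40 and C1qtnf1 at 0.09 ± 0.11. So 2 of 7 members passed the adjusted p, beside 12.2% of all genes, and 0 were called by edgeR, beside 1.1% higher and 0.353% lower, with 3 members at an unadjusted p under 0.05 and 0 called by DESeq2. The siRNA effects under IL-17 did not differ from those in untreated cells by a called amount for any member, and 0.17% (si-IAMP-1) and 0.174% (si-IAMP-2) of all genes were called. At an unadjusted p under 0.05 there were 0 members with si-IAMP-1 and 1 with si-IAMP-2, C1qtnf7, at 0.30 ± 0.11 (edgeR adjusted p = 0.222), and DESeq2 called 0 and 0.

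**Figure D3:**
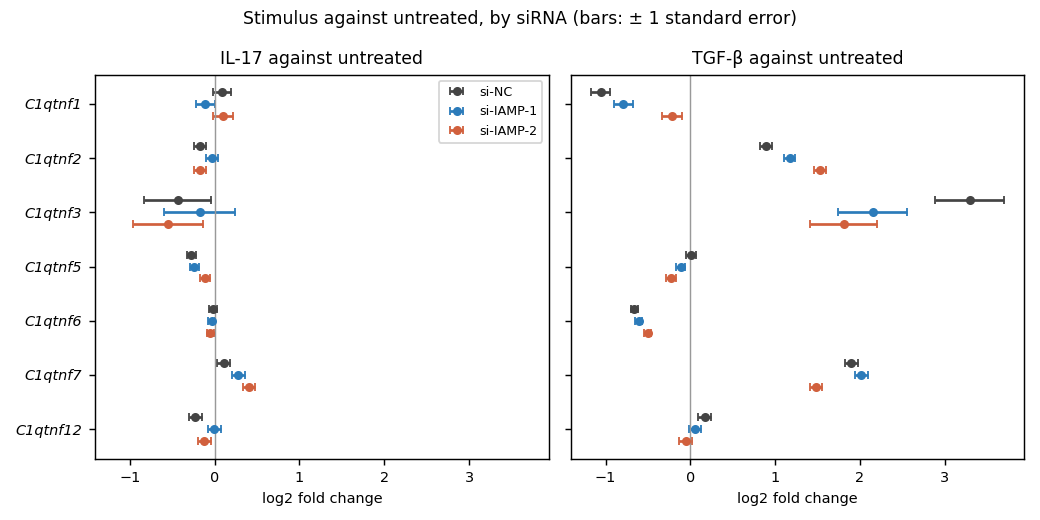
log2 fold change of IL-17 and TGF-β against untreated (horizontal axis, shared) for the 7 genes (vertical axis), by siRNA (colour). Points are fitted values and bars ± 1 standard error. Under TGF-β C1qtnf3 lies at 3.29 in si-NC and 1.81 in si-IAMP-2, and under IL-17 all members lie within -0.55 to 0.41.

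Markers of other cells moved between these groups. Summed over 5 cardiomyocyte markers, untreated cells had 94.0 to 102 CPM with si-NC, 40.2 to 45.3 CPM with si-IAMP-1 and 26.6 to 32.3 CPM with si-IAMP-2, and TGF-β si-NC cells 4.83 to 5.51 CPM. Nearly all of it was Tnnt2, with a mean of 97.2 CPM in untreated si-NC cells, while Myh6, a defining marker, stayed at or under 11 estimated counts in every CF library, under the floor. Summed macrophage markers (5 genes) were 55.9 to 61.1 CPM with si-NC, 55.0 to 57.7 CPM with si-IAMP-1 and 70.9 to 73.2 CPM with si-IAMP-2 in untreated cells. Under IL-17 they were 56.0 to 56.5, 59.2 to 65.1 and 72.4 to 77.9 CPM, and under TGF-β 155 to 163, 122 to 137 and 135 to 140 CPM, in the same order. From untreated to TGF-β si-NC cells, mural markers (3 genes) went from 3.21 to 4.19 CPM to 11.3 to 12.7 CPM and endothelial markers (4 genes) from 55.7 to 60.2 CPM to 85.6 to 87.3 CPM. Of the endothelial markers the 1 called in that comparison, Kdr, a VEGF receptor gene, fell by 1.47 ± 0.13 (edgeR adjusted p = 1.45e-11). Adipocyte markers were at or under 0.155 CPM and erythroid markers at or under 0.894 CPM in CFs. The part of these shifts in the results was not tested, and fewer cells of a type cannot be told apart from less RNA per cell in bulk samples.

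By group mean, whole hearts held less of every member than si-NC CFs, as a description across separately normalised tables. The libraries overlapped for C1qtnf1 under TGF-β, at 9.24 to 10.9 CPM in si-NC cells and 6.98 to 9.65 CPM in Het hearts. They also overlapped for C1qtnf3 between hearts and untreated si-NC cells, near the floor in both. In Het hearts C1qtnf12 had the highest mean level per kb, at 4.70 ± 0.250 CPM per kb (SD, n = 4), with C1qtnf6 close at 4.50 ± 0.641. C1qtnf1 followed at 2.64 ± 0.383 and C1qtnf2 at 1.63 ± 0.442. C1qtnf7 stood at 0.805 ± 0.116 and C1qtnf5 at 0.730 ± 0.823 CPM per kb. C1qtnf3 was listed at 0 in 6 of 8 hearts and at 4 counts in 1 Het and 1 KO heart. C1qtnf5 ranged from 0 to 3.04 CPM in Het and from 0.383 to 0.838 CPM in KO. In these hearts the other CTRP genes C1qtnf9 and C1qtnf4, at 28.9 to 32.2 CPM and 6.88 to 9.15 CPM, were at higher CPM than C1qtnf3 and were near the floor in CFs, at 52 estimated counts or fewer.

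Between KO and Het hearts no member passed the test. C1qtnf1 was at 6.98 to 9.65 CPM in Het and 6.96 to 8.36 CPM in KO, C1qtnf2 at 1.30 to 2.62 and 1.13 to 2.51 CPM, and C1qtnf6 at 9.76 to 13.9 and 9.93 to 12.2 CPM. C1qtnf7 was at 2.80 to 3.96 and 2.93 to 3.67 CPM and C1qtnf12 at 6.10 to 6.90 and 5.15 to 6.78 CPM. The groups overlapped for all members. The differences were -0.09 ± 0.10 for C1qtnf1, -0.18 ± 0.24 for C1qtnf2, -0.74 ± 0.86 for C1qtnf5, -0.12 ± 0.10 for C1qtnf6, 0.06 ± 0.12 for C1qtnf7 and -0.08 ± 0.11 for C1qtnf12, and C1qtnf3 did not pass the filter on low counts. Of 16675 genes tested 0% was called by edgeR, with 601 at an unadjusted p under 0.05, none of them among the 6 members tested, and DESeq2 called 3 genes, Heg1, Fyb and Bmp10, named here after their values were seen, and 0 members.

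**Figure D4:**
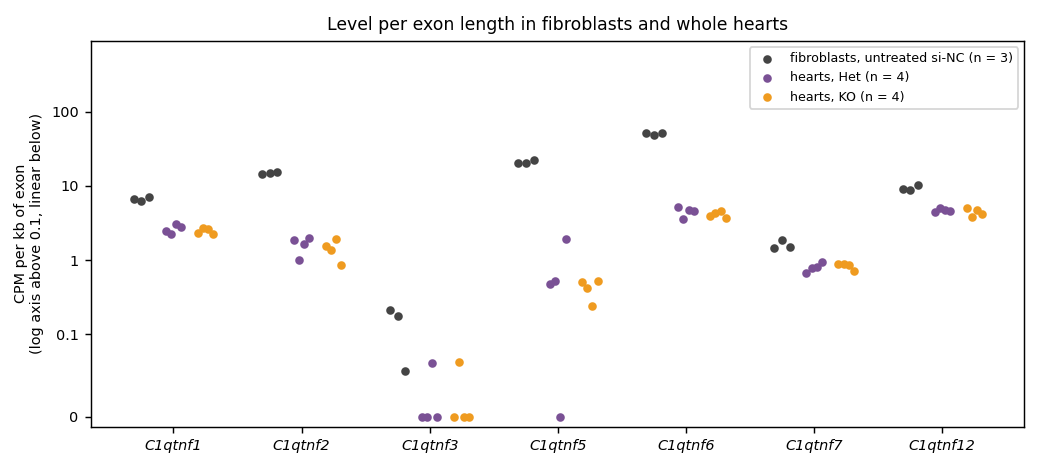
Level in CPM per kb of exon (vertical axis, logarithmic above 0.1 and linear below) of the 7 genes in untreated si-NC fibroblasts (n = 3), Het hearts (n = 4) and KO hearts (n = 4). Points are libraries. The mean of each gene is lower in hearts, and the Het and KO points overlap.

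Over the 9 CF groups, the genes most alike to C1qtnf3 in the shape of their mean levels (root mean square difference of centred log2 CPM, among 10700 genes at 5 CPM or more on average) were Csdc2 at 0.34, Camk2n1 at 0.39 and Cthrc1 at 0.40, beside a root mean square of 1.39 for the pattern of C1qtnf3 itself. Csdc2, an RNA-binding protein gene, was at 7.25 CPM in untreated si-NC cells, 46.1 CPM in TGF-β si-NC cells and 19.9 and 17.1 CPM under TGF-β with the siRNAs. Cthrc1, a collagen triple helix repeat gene of activated fibroblasts, was at 15.7, 108, 45.1 and 46.8 CPM in the same order. The genes most alike to C1qtnf1 were Lbr at 0.19, Kifc1 at 0.20 and Pimreg at 0.20, beside 0.97 for C1qtnf1 itself. Lbr encodes a nuclear envelope receptor and was at 59.1, 22.5 and 11.6 CPM in untreated si-NC, si-IAMP-1 and si-IAMP-2 cells. Kifc1, a kinesin gene of the mitotic spindle, was at 55.8, 25.1 and 12.5 CPM.

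Of 8 other CTRP and C1q-like genes, 5 could be tested under TGF-β. Erfe (erythroferrone, an iron-regulating hormone of this family) was the 1 called there against untreated in si-NC, where 11.7% of all genes were called higher and 9.14% lower. It rose by 2.02 ± 0.12 (edgeR adjusted p = 8.17e-16), from 6.17 to 8.44 CPM to 26.6 to 31.5 CPM. In untreated cells Erfe differed by -0.15 ± 0.11 with si-IAMP-1 (edgeR adjusted p = 0.346) and fell by 0.76 ± 0.11 with si-IAMP-2 (edgeR adjusted p = 2.50e-05), and under IL-17 it differed by -0.00 ± 0.14 with si-IAMP-1 (edgeR adjusted p = 0.9997) and fell by 0.70 ± 0.14 with si-IAMP-2 (edgeR adjusted p = 0.000429). The called of this list against si-NC outside TGF-β were C1ql1, lower with si-IAMP-1 in untreated cells (2.61% of all genes), and Erfe and C1qtnf4, lower with si-IAMP-2 under IL-17 (13.7% of all genes). C1ql1 was at 18 to 27 estimated counts with si-NC and listed at 0 with si-IAMP-1, and C1qtnf4 at 15 to 17 estimated counts, under the floor, with si-NC and listed at 0 with si-IAMP-2, so no fold is given. Under TGF-β, as a description, Erfe with the siRNAs differed from si-NC by -1.32 ± 0.08 and -1.77 ± 0.09. Past both thresholds there, and lower, were Erfe with si-IAMP-1, beside 1.91% of all genes, and Erfe, C1ql1 (-1.68 ± 0.52) and C1ql3 (-0.79 ± 0.12) with si-IAMP-2, beside 5.44%.

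Among 16 other genes with a C1q domain, 13 were tested for TGF-β against untreated, of which 2 were called higher and 4 lower, beside 11.7% and 9.14% of all genes. Col8a2, a network collagen chain, rose by 4.37 ± 0.38 (edgeR adjusted p = 2.66e-09), and Mmrn2, an endothelial matrix protein gene, by 1.25 ± 0.13 (edgeR adjusted p = 6.36e-10). The complement genes C1qa, C1qb and C1qc fell by 1.33 ± 0.24, 2.02 ± 0.40 and 2.43 ± 0.32, and Caprin2 by 1.02 ± 0.16 on the same scale. C1qa, C1qb and C1qc are made chiefly by macrophages, and their highest level in CFs was 3.03 CPM. Of 5 other macrophage markers, 3 (Adgre1, Cd68 and Lyz2) were called higher in the same comparison and 0 lower, beside 11.7% and 9.14% of all genes. The cause of these opposite directions was not tested. Under IL-17 C1qa and Caprin2 were called lower with both siRNAs, and C1qb and Col8a2 with si-IAMP-2 alone, beside 7.97% (si-IAMP-1) and 13.7% (si-IAMP-2) of all genes, and Emilin2 was called higher with si-IAMP-2, beside 8.06%. In untreated cells Emilin2 was called higher and Col8a2 lower with si-IAMP-2, beside 3.42% and 7.23% of all genes, and none with si-IAMP-1. Under TGF-β, as a description, C1qa differed by -0.98 ± 0.32 and -0.90 ± 0.32, at 31 to 100 estimated counts. Past both thresholds there, and lower, were C1qa with both siRNAs and C1qb, C1qc and Col8a2 with si-IAMP-2 alone. The shares of all genes were 1.91% (si-IAMP-1) and 5.44% (si-IAMP-2).

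Of 9 receptors, partners and effectors, 8 were tested. Prkaa1, a catalytic subunit of the AMP-activated kinase that adiponectin receptors act through, rose with both siRNAs under IL-17, by 0.76 ± 0.04 (edgeR adjusted p = 9.12e-11) and 1.24 ± 0.04 (edgeR adjusted p = 7.01e-14), where 5.58% and 8.06% of all genes were called higher. In untreated cells it rose by 0.84 ± 0.03 and 1.34 ± 0.03, the first short of 2-fold and the second called, beside 3.42% of all genes. Under TGF-β, as a description, Prkaa1 lay past both thresholds, higher, with si-IAMP-2 and not with si-IAMP-1. With si-IAMP-2 2.07% of all genes did so. Adipor1 and Adipor2, the adiponectin receptors, stayed within -0.19 to 0.48 in the 6 siRNA comparisons and were called in none of them. Under TGF-β, 2 were called lower against untreated, beside 9.14% of all genes. Cdh13, which binds adiponectin, had a log2 fold change of -1.50 ± 0.09. Mfrp was at 1 to 101 estimated counts in the si-NC libraries of both conditions, partly under the floor, so no fold is given. The call of Mfrp also rests on the uncertain split of reads with C1qtnf5, whose exonic bases all belong to Mfrp exons.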

How the data were processed

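RNA-Seq was measured in 27 CF and 8 heart libraries, and all 35 columns of the 4 deposited tables were used. Groups follow the sample labels. The codes in the untreated and IL-17 columns were tied to si-IAMP-1 and si-IAMP-2 through the descriptions of the TGF-β samples. Per the paper's methods and the submitters' processing notes, the authors trimmed reads with Cutadapt, aligned them to GRCm38 with HISAT2 and quantified them with StringTie. The step to whole numbers, strand and annotation are not given in the sources used here. The CF tables were deposited by the authors as estimated counts per gene, whole numbers derived from StringTie and not normalized. The heart table was deposited by the authors as raw counts per gene. CPM are these values scaled to the library total. Genes were annotated with GENCODE vM21.

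Each table was fitted in R 4.3.3 with edgeR 4.0.16 (TMM, filterByExpr, robust quasi-likelihood, Benjamini-Hochberg), with all its libraries. The stimulus comparisons and IL-17 interactions used 1 fit of all CF libraries. Replicates of each group differed by more than counting noise, so all were kept. The method was tested on simulated data. Members, related lists and tests were chosen with earlier results of these data known. The named genes are the members, the genes most alike to C1qtnf3 and C1qtnf1, and related genes called with both siRNAs of a table or in a stimulus comparison. Alternatives were DESeq2 1.42.0, RLE size factors, no filter, at least 10 in every library, the other fold threshold, division by 6, the compared groups alone, the replicate block and leaving out each library. The other fold threshold reuses the same test, so it leaves each adjusted p unchanged. C1qtnf1, C1qtnf12 and the proteins have no sequence here.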

Additional observations from a re-analysis of the deposited data

Results flagged for a closer look

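In the heart groups, each of 4 samples, C1qtnf3 had 1 library far from the others in both genotypes, 0.168 CPM for the Het library and 0.169 CPM for the KO library. The other hearts were listed at 0, and each of these held 4 counts. C1qtnf7 had 1 low KO heart at 2.93 CPM, below 3.57 to 3.67 CPM in the others. Chance alone marks about 1 in 20 groups of 4 normally distributed values in this way. This rate does not hold for C1qtnf3, since 1 library above 0 is always marked when the others are at 0.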

How the results depend on the processing

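Of the counts of called members under the alternatives, 201 stayed within 1.5 times of the reported count and 6 did not. At the 2-fold threshold 0 members were called for si-IAMP-2 against si-IAMP-1 under IL-17 and under TGF-β, and 1 for si-IAMP-1 against si-NC under TGF-β. The latter was C1qtnf3, which was used to choose the members. For TGF-β against untreated 5 members were past both thresholds at 1.5-fold, against 3 at 2-fold. Both counts include C1qtnf3, which carries no test there. Leaving out each library gave 0 to 1 for si-IAMP-2 against si-IAMP-1 under TGF-β, the count being 0 without si-IAMP-1 replicate 2 or si-IAMP-2 replicate 1. Over all genes, the other threshold moved the counts from 936 to 2374, 2095 to 4156 and 1308 to 3121 in untreated cells (si-IAMP-1, si-IAMP-2, and si-IAMP-2 against si-IAMP-1), from 2697 to 1158, 4323 to 2249 and 3122 to 1284 under IL-17, and from 867 to 273, 1494 to 587 and 787 to 230 under TGF-β. It moved IL-17 against untreated from 326 to 687, TGF-β from 4658 to 7554, and the IL-17 differences of the siRNA effects from 38 to 88 and 39 to 109, the first also to 63 with DESeq2. In hearts DESeq2 called 3 genes where edgeR called 0.

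Some small differences changed sign, none of them called, and the cause was not tested. For C1qtnf2 the difference of the si-IAMP-2 effect under IL-17 was -0.00823 with no filter and -0.0107 with the compared groups alone, and C1qtnf5 under TGF-β in si-NC was -0.00721 with DESeq2 and -0.00157 after division by 6. Leaving out each library gave, for KO against Het, -0.14 to 0.00259 for C1qtnf1, -1.15 to 0.33 for C1qtnf5 and -0.0155 to 0.13 for C1qtnf7. The si-IAMP-1 effect under IL-17 minus untreated ranged from -0.11 to 0.65 for C1qtnf3, -0.0147 to 0.0768 for C1qtnf5 and -0.0533 to 0.0162 for C1qtnf6. The same for si-IAMP-2 ranged from -0.0854 to 0.10 for C1qtnf1, -0.0500 to 0.0851 for C1qtnf2, -0.82 to 0.28 for C1qtnf3 and -0.0580 to 0.000479 for C1qtnf6. For si-IAMP-2 against si-IAMP-1, C1qtnf3 ranged from -0.83 to 0.14 under IL-17 and -0.27 to 0.0765 under TGF-β, and C1qtnf6 from -0.00895 to 0.0462 under TGF-β. C1qtnf5 under TGF-β against untreated ranged from -0.0308 to 0.0573 and C1qtnf6 under IL-17 from -0.0478 to 0.00726.

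The deviations of same-numbered CF libraries from their group means correlated at -0.0652 to 0.0281, so no shared effect of the number was seen. The labels do not say whether the numbers pair the samples. With the replicate block C1qtnf1 under IL-17 with si-IAMP-1 was -1.45, and the block changed no call of a member, though the adjusted p of C1qtnf12 became 0.0604 for si-IAMP-1 in untreated cells and 0.0532 for IL-17 against untreated. Over all genes it moved the calls of the IL-17 si-IAMP-1 comparison from 2697 to 2601. No paired analysis was possible for hearts because the heart columns carry no replicate number of their own in the labels. Depth limits C1qtnf3 outside TGF-β, where it lies near the floor and was left out of the untreated and IL-17 tests by 1 of the 14 alternatives.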
